A study of Caenorhabditis elegans with 2 samples.

Results

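The cytosolic ribosomal protein genes of Caenorhabditis elegans were taken as the protein-coding genes of the Ensembl annotation of WBcel235 whose names start with rpl- (large subunit) or rps- (small subunit). The rule found 78 genes, 47 of the large and 31 of the small subunit, among 19973 protein-coding genes on the nuclear chromosomes. Binding of the chromatin remodeller CHD-7 had been mapped by chromatin immunoprecipitation and sequencing in 1 group of worms with 2 biological replicates. The worms were strain OP609, genotype unc-119(tm4063) III; wgIs609, in which the integrated transgene wgIs609 makes CHD-7 with GFP and FLAG joined to its C-terminal end. Males and females, as the labels put it, were pooled, and whole young adults were collected 67 h after a synchronised start from starved L1 larvae. Sonicated chromatin was immunoprecipitated through the GFP tag, so the assay targets the transgenic fusion and averages over all tissues. No untagged or mutant group was compared, so peaks that do not come from the fusion could not be told apart.

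Ribosomal proteins coat and stabilise the ribosomal RNA, and a growing or egg-producing animal makes them in large and roughly equal amounts from genes scattered over the genome. In C. elegans most of these genes are short, lie on all chromosomes and are transcribed strongly in almost every tissue. Many worm transcripts are trans-spliced to a short leader, and the annotated 5′ end of such a gene marks the splice site, with transcription starting some way upstream. CHD-7 belongs to the chromodomain helicases, ATPases that slide or evict nucleosomes, and its vertebrate counterpart CHD7 is known for binding enhancers and promoters, and for acting in the nucleolus on ribosomal RNA genes.

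Of the 78 genes, 20 had at least 1 summit of the authors' reproducible peak list in the promoter window, which spans 1000 bp before and 200 bp after the start of the gene as annotated. That is 25.6% (95% Wilson interval 17.3 to 36.3, which covers the counting of genes only), beside 4.18% of all protein-coding genes. Below that list lies a pooled list of 30000 candidates that also holds background. A pooled candidate summit stood in the window of 55 of the 78 genes, or 70.5% (59.6 to 79.5), beside 30.8% of all protein-coding genes. Among genes with such a candidate, 20 of 55 ribosomal protein genes (36.4%, 24.9 to 49.6) had a reproducible summit, beside 13.6% of all genes with a candidate. The 20 genes held 21 reproducible peaks, since rps-26 had 2. Their signal, the peak caller's value for a peak, had a median of 287 for the highest peak of each gene, against 232 for the 814 other genes with a reproducible promoter summit. The distribution was wide, from 169 to 1457, and 6 of the 20 (30%) ranked within the highest 100 of the 1884 reproducible peaks, against 6.63% of the other genes.

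**Figure D1:**
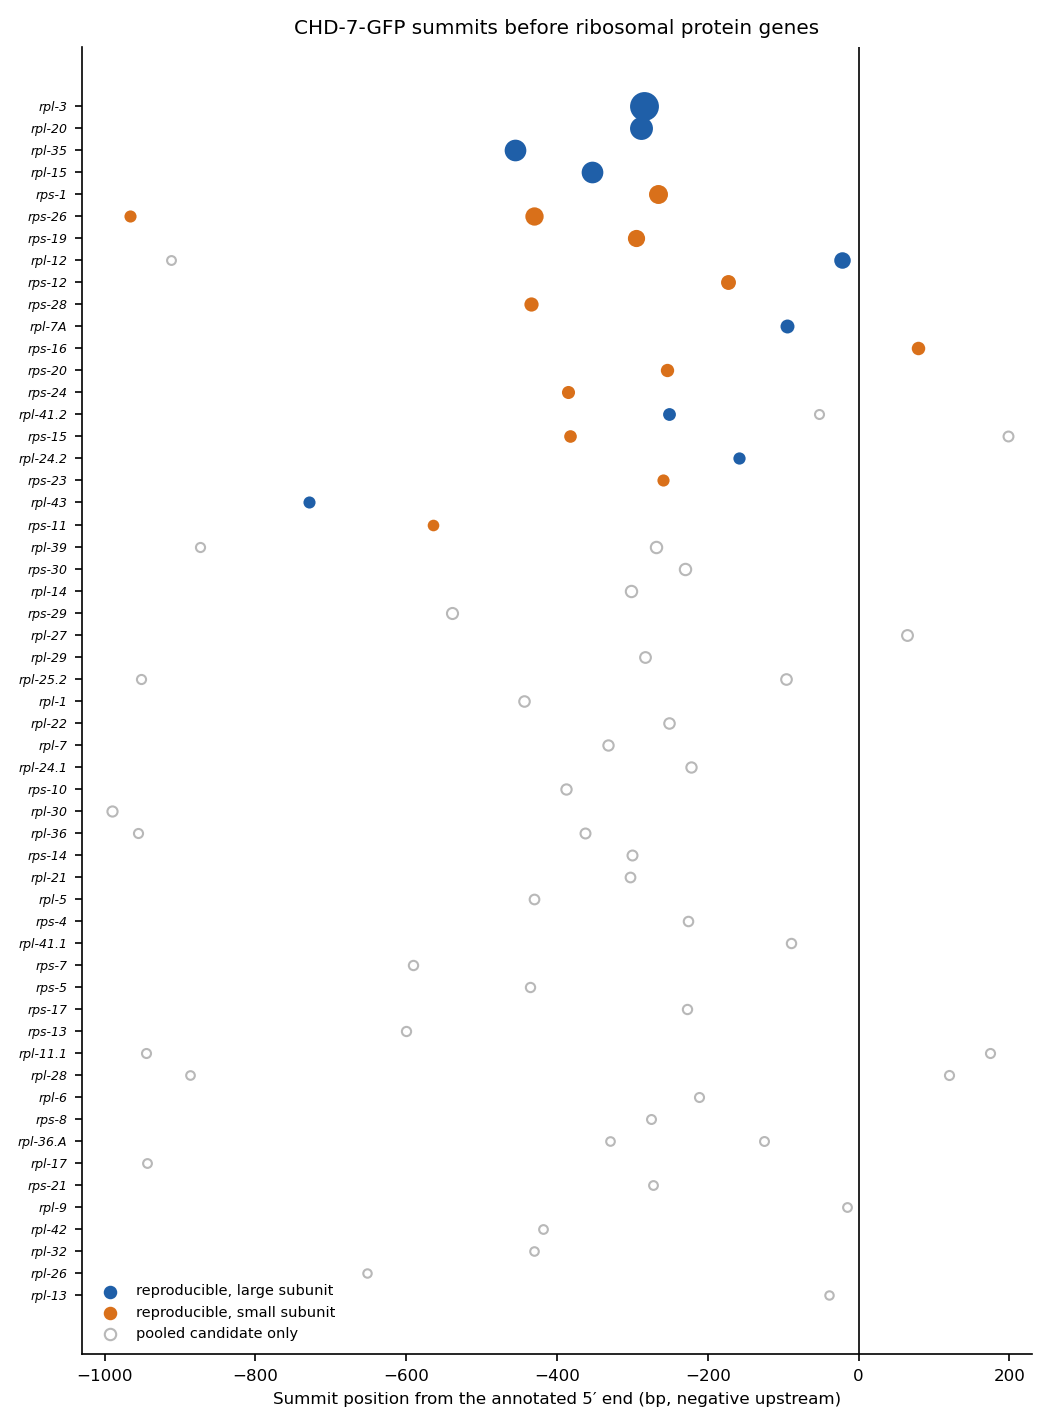
Summits in the promoter windows of the 55 ribosomal protein genes with a pooled candidate, ordered from top to bottom by the signal of their highest candidate. The horizontal axis is the distance of the summit from the annotated 5′ end in bp. Filled circles are reproducible peaks of large (blue) and small (orange) subunit genes. Open circles are pooled candidates outside the reproducible list, whether or not a replicate list holds them. The area of a circle grows with signal. The strongest circle is rpl-3 with a signal of 1457, and most filled circles lie upstream between -500 and -150 bp.

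The highest peak of the class stood before rpl-3, whose protein reaches from the surface of the large subunit to the peptidyl transferase centre where peptide bonds are made. It lay on ce11 at III:3867404-3867732 in intergenic sequence, with its summit 284 bp upstream of the gene and in no other coding gene's window. Its signal was 1457, which placed it at rank 2 of the reproducible list. It held rank 2 in replicate 1 with a signal of 748 and rank 2 in replicate 2 with a signal of 703. The other centre-of-subunit genes of the fixed role list, rpl-4 and rpl-10, had no reproducible promoter summit. Both replicates therefore ordered rpl-3 alike, at the head of their lists.

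Next in order came rpl-20, rpl-35 and rpl-15. The peak of rpl-20, a large-subunit protein, lay at IV:4749958-4750202 with a signal of 888 (rank 17), at rank 29 in replicate 1 and rank 11 in replicate 2. Its summit was 288 bp upstream of rpl-20, but 174 bp from the 5′ end of Y17G9B.5, which is transcribed the other way. The peak of rpl-35, whose protein sits at the rim of the exit tunnel where the new chain leaves, lay at III:7854572-7854806 with a signal of 787 (rank 29). It held rank 25 in replicate 1 and rank 38 in replicate 2, and its summit was 456 bp upstream in no other coding window. The peak of rpl-15, a core protein of the large subunit, lay at IV:654800-655050 with a signal of 787 (rank 30), at ranks 39 and 21, and its summit 354 bp upstream was shared with K11H12.8. All of these peaks were narrower than 390 bp (the commonest width in the list). Among the 20 genes, 9 had a highest peak below that width (45%), against 20.8% of the other genes.

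The sequences below are the summit base with 75 bases on each side for the 6 genes of highest signal outside the chromosome that is not printed here, shown because the strongest of them share short words in the same orientation. They come from RefSeq WBcel235 and read 5′ to 3′ on the strand of the gene. Capitals mark 3 words on either strand. The first word is TACGGTA, the next found is GAGCGTG, and the last, farther downstream, is GGCCTAA. These words were picked after the sequences had been seen.
rpl-3: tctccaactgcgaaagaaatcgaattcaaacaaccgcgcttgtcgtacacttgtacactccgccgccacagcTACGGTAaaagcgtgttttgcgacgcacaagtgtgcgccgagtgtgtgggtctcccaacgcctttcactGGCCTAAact
rpl-20: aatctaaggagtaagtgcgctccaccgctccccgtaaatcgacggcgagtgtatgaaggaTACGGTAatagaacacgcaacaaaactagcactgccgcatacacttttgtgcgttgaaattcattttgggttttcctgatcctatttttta
rpl-35: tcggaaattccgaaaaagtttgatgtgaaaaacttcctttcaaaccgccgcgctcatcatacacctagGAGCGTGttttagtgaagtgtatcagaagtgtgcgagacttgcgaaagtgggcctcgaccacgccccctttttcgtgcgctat
rpl-15: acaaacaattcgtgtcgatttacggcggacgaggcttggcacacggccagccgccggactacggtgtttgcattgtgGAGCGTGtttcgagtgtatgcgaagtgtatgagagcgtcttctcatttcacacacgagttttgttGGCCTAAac
rps-1: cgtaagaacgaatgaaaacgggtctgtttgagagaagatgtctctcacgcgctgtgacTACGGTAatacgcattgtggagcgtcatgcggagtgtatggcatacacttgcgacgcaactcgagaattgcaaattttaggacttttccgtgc
rpl-12: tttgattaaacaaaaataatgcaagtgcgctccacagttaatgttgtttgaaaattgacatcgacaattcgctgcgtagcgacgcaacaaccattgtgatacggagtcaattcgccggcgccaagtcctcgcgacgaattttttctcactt

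In these windows TACGGTA stood in rpl-3 with its middle base 0 bp from the summit, in rpl-20 12 bp and in rps-1 14 bp upstream of it. GAGCGTG stood in rpl-35 and rpl-15 within 5 bp of the summit. GGCCTAA followed downstream, with its middle 69 bp from the summit in rpl-3 and 70 bp in rpl-15. The window of rpl-12 held none of the 3 words. All these matches were on the strand of the gene. TACGGTA occurred in 6 of the 20 summit windows of the class (30%), namely rpl-3, rpl-20, rps-1, rps-20, rps-23 and rpl-43, against 3.16% of 664 other reproducible promoter summits and 2.37% of other promoters read at the same distance. GAGCGTG occurred in 2 of the 20 (10%), against 3.46% of other reproducible promoter summits and 0.598% of other promoters at that distance. GGCCTAA occurred in 4 of the 20 (20%), against 0.904% of other reproducible promoter summits and 0.935% of other promoters. Of all reproducible peaks, members included, GAGCGTG was in 10% of the highest 100, 6% of the next 400 and 2.53% of the last 1384. TACGGTA was in 7%, 2% and 2.02% of these groups, and GGCCTAA in 2%, 1% and 0.723%. The 2 member matches of GAGCGTG, at rpl-35 and rpl-15, stood at ranks 29 and 30 and are part of the highest 100. The member share was read over every rank, so it is not comparable with the share of that group. Whether members differ from other strong peaks in this word was not tested. Since the words were chosen on the members, the member shares are a description and carry no weight of their own. Matches are letters in a window and say nothing on which factor binds.

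Searched over the 600 bp upstream of the 5′ end, a stretch that takes in most of the summit windows from which the words were picked, GGCCTAA occurred in 25 of the 78 genes (32.1%) and in 3.33% of the other coding genes. It was in 19 of 58 genes without a reproducible promoter summit (32.8%) and in 6 of 20 with one (30%). It was on the strand of the gene in 19 of its 28 matches, at a median of 242 bp upstream. Over the same stretch TACGGTA was on that strand in 7 of 17 matches and GAGCGTG in 3 of 7, so the shared orientation of the printed windows did not extend to the whole class. In genes with a reproducible summit, all matches of these words were on the strand of the gene. In genes without one, TACGGTA was on it only at rpl-1 and rps-10, and GAGCGTG only at rpl-39. The TACGGTA matches of rps-10 and rpl-24.1 are the same site between these genes, read from either side. TACGGTA occurred in 17 of the 78 (21.8%) against 8.41% of other coding genes, in 5 of 20 genes with and 12 of 58 without a summit. GAGCGTG occurred in 7 of the 78 (8.97%) against 2.54%. These counts, too, hold the genes on which the words were chosen and are a description.

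A list of short motifs set in the plan was also read at the summits. The TATA-like TATAAA and the E-box CACGTG were in 0 of 20 windows, against 6.78% and 9.04% of other promoter summits. CTGCGTC was in 1 window (5%, against 12.2%), TTTCAG, the letters of a worm 3′ splice site, in 1 (5%, against 11.0%), and GAGAGA in 3 (15%, against 30.9%). GCGCGC was in 4 (20%, against 9.04%). Each motif was searched on both strands, with overlapping matches counted once per window. In other promoters read 286 bp upstream, TATAAA was in 18.6%, CACGTG in 2.35%, CTGCGTC in 1.82%, GAGAGA in 9.15% and GCGCGC in 1.66%, and TTTCAG was in 5176 of 19895. The windows of the class had a median GC content of 47.0%, other promoter summits 47.7%, and other promoters at that distance 33.8%.

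The remaining large-subunit genes with a reproducible summit were rpl-12, rpl-7A, rpl-41.2, rpl-24.2 and rpl-43, which brings the large subunit to 9 of 47 (19.1%, 10.4 to 32.5). rpl-12 encodes a protein at the base of the ribosomal stalk, where translation factors dock. Its peak at IV:13240598-13240758 had a signal of 424 (rank 188), ranks 282 and 140 in replicates 1 and 2, and a summit 22 bp upstream that was also in the window of lin-54. rpl-7A, which carries 2 snoRNA genes inside the gene, had its summit 95 bp upstream at a signal of 279, ranks 818 and 439, shared with set-21. rpl-41.2 had a signal of 223 with the summit 252 bp upstream and ranks 1491 and 890. rpl-24.2, whose yeast counterpart Rlp24 is a ribosome assembly factor and not a part of the finished ribosome, had a signal of 197 with the summit 159 bp upstream inside an intron of C03D6.1. Its rank was 4497 in replicate 1 and 687 in replicate 2. The peak of rpl-43 had a signal of 190 (ranks 1981 and 1529) with the summit 729 bp upstream, but 192 bp from the 5′ end of Y48B6A.1. Of the role groups, the 5S ribonucleoprotein genes rpl-5, rpl-11.1 and rpl-11.2 had 0 of 3 and the rim of the exit tunnel 1 of 6, which was rpl-35.

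In the small subunit 11 of 31 genes had a reproducible summit (35.5%, 21.1 to 53.1). The interval overlaps that of the large subunit, and both subunits had a pooled candidate at nearly the same share, 71.0% and 70.2%. The highest was rps-1, a protein near the site where messenger RNA leaves the small subunit. Its peak at III:4475551-4475757 had a signal of 584 (rank 70), ranks 109 and 59, and a summit 266 bp upstream. That summit lay within short annotated non-coding RNAs and was shared with ifet-1, a translation repressor gene. rps-26, which also lies near that exit, had a peak of signal 539 (rank 85; ranks 150 and 82) with the summit 431 bp upstream, within 100 bp of the snoRNA gene F39B2.14 and 26 bp from the 5′ end of tmem-107. Its second peak, 966 bp upstream in a coding exon of tmem-107, had a signal of 192 and ranks 1060 and 2363. rps-19, whose human counterpart is mutated in Diamond-Blackfan anaemia, had a signal of 466 (rank 142; ranks 162 and 142), with the summit 295 bp upstream and 150 bp from hsr-9.

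The other small-subunit peaks were lower. rps-12 had a signal of 330 (ranks 772 and 286) with the summit 173 bp upstream and 120 bp from ska-3, and its interval of 100 bp was the narrowest of the class. rps-28 had a signal of 294 (ranks 527 and 458) with the summit 434 bp upstream, shared with Y41D4B.4. rps-16, whose protein reaches with its tail towards the transfer RNA in the decoding region, was the single gene with its summit downstream of the 5′ end, 79 bp on in a coding exon, at a signal of 256 (ranks 687 and 654). rps-24 had a signal of 236 (ranks 1603 and 677) with the summit 386 bp upstream in no other coding window. rps-20 had a signal of 248 with the summit 254 bp upstream and 143 bp from ekl-4. Of the decoding and mRNA-path genes, rps-15 (signal 214, 383 bp upstream) and rps-23, a guardian of decoding accuracy (signal 193, 259 bp upstream), had a reproducible summit, making 2 of 5. rps-11 was the lowest of the class at a signal of 169 and rank 1784, 565 bp upstream.

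By their promoter-window candidates, the members just outside the reproducible list had nearly the same signal as its lowest ones. rps-30 and rpl-39, which face away from each other, shared a pooled candidate of signal 159 (rank 2100), at ranks 1935 and 2752 in the replicates. rpl-14 had a candidate of signal 157 (rank 2148), at ranks 8608 and 1543. The lowest signal in the reproducible list was 166. The reproducible list and the top 1884 of the pooled list were identical, and these genes came after them in that order.

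The replicates did not place all 21 peaks equally. In replicate 2 all 21 peaks had an overlapping entry and 19 had one within the top 1884, while in replicate 1 there were 20 and 16. Within the top 1884 of both stood 14 of the 21 (66.7%), against 62.2% of 685 other promoter peaks. Of the 20 peaks with an entry in both, replicate 2 ranked 16 higher than replicate 1 did (80%), against 54.5% of 668 other promoter peaks. The widest gaps were at rps-23, with ranks 16681 and 483, rps-15 with ranks 5782 and 537, and rpl-24.2. rps-20 had no overlapping entry in replicate 1 and rank 432 in replicate 2. The opposite order occurred at 3 peaks, those of rps-11, with ranks 1311 and 4714, rpl-35, with ranks 25 and 38, and the second one of rps-26, while rpl-3 held the same rank in both. The strong peaks from rpl-3 down to rps-19 were within the top 200 of both replicates.

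**Figure D2:**
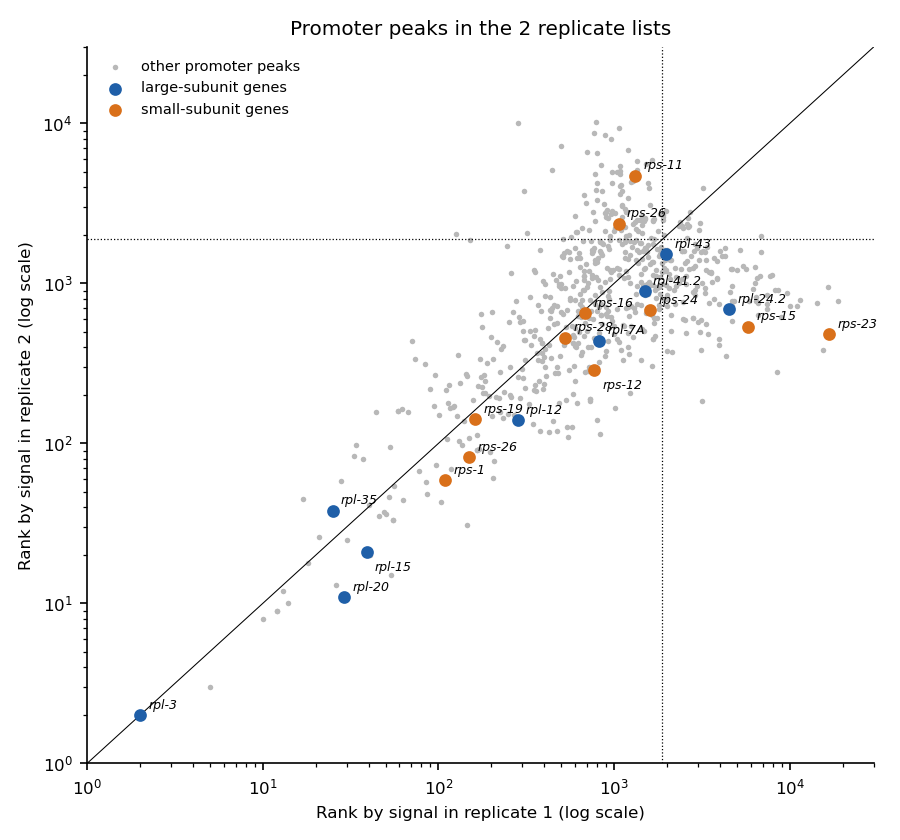
Rank of each reproducible promoter peak by signal in replicate 1 (horizontal, log scale) and replicate 2 (vertical, log scale), with grey points for other promoter peaks, blue for large-subunit and orange for small-subunit genes. Dotted lines mark rank 1884 and the diagonal equal ranks. rps-20, which has no entry in replicate 1, is not drawn, and 14 of the 21 peaks of the class lie below both dotted lines.

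Counted from each replicate list on its own, a summit of the top 1884 entries stood in the window of 17 of the 78 genes in replicate 1, beside 3.72% of all protein-coding genes, and of 23 in replicate 2, beside 4.59%. In both lists it was 15 genes, or 19.2%, beside 2.67% of all protein-coding genes. The share of the class lay above that of other genes at every list length read. At the top 100 entries it was 5.13% against 0.261% in replicate 1 and 7.69% against 0.271% in replicate 2. At all 30000 entries it was 67.9% against 29.3% and 79.5% against 32.8%.

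**Figure D3:**
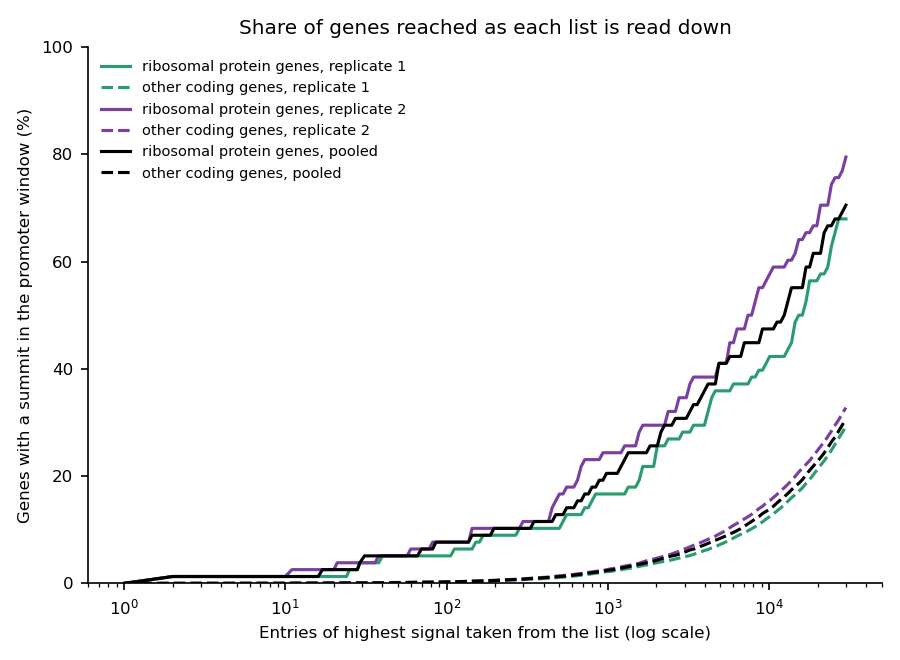
Percentage of genes with a summit in the promoter window (vertical) when the entries of highest signal up to a given number are taken from a list (horizontal, log scale), for the 78 ribosomal protein genes (solid) and the other coding genes (dashed) in replicate 1, replicate 2 and the pooled list. Each solid line lies above the dashed line of its list, and at 1884 pooled entries they stand at 25.6% and 4.09%.

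One of the 15 genes was absent from the reproducible list. rpl-11.2, which encodes a partner of the 5S ribosomal RNA and was picked out after its values were seen, had an entry of replicate 1 at X:2242831-2243194 (rank 556, signal 145, summit 395 bp upstream). Replicate 2 had one at X:2242809-2243228 (rank 634, signal 134, summit 401 bp upstream). No entry of the pooled list analysed here overlapped them. Whether that list is complete at this place could not be settled, and this bears on the counts given for X, for the 5S genes and for genes with no candidate. Of 1106 entries of replicate 1 that were top-ranked in both replicates, 2 had no overlapping pooled entry, and the one at rpl-11.2 was one of them. The signal in the 2 replicate lists is therefore not carried by the count of 20.

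Most summits of the class lay in a band upstream of the genes, within a range of -729 to 79 bp. For the highest summit of each gene the offset had a median of -286 bp and quartiles of -397 and -232 bp, against a median of -264 bp and quartiles of -541 and -105 bp for other genes. Of the 20, 15 (75%, 53.1 to 88.8) lay from -500 to -150 bp, against 43.0% of 814 others. The edges of this band were not part of the plan for the offsets, so these shares are a description. The matched entries of the replicates had medians of -295 bp in replicate 1 and -280 bp in replicate 2. Of the 21 peaks, 17 had their summit in intergenic sequence. The exceptions were the summits of rps-1, rpl-24.2, rps-16 and the second one of rps-26. No share over other promoter peaks stands beside this count of 17, so it does not set the class apart.

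**Figure D4:**
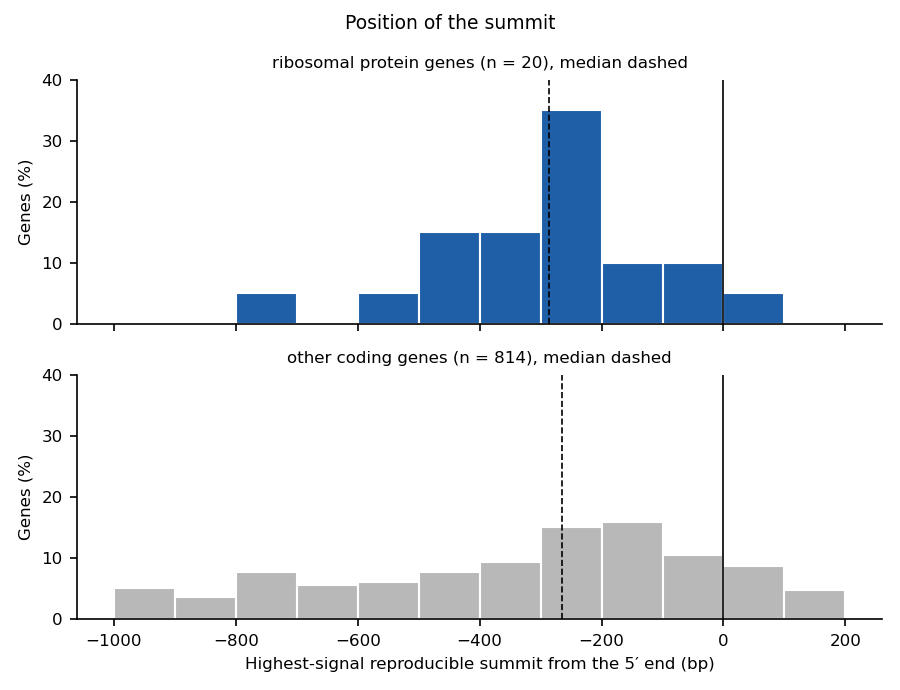
Position of the highest reproducible summit of each gene from its annotated 5′ end in bins of 100 bp (horizontal, negative upstream), as a percentage of genes (vertical), for 20 ribosomal protein genes above and 814 other coding genes below. Dashed lines mark the medians of -286 and -264 bp, and the upper distribution is the narrower one.

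Many of these promoters are shared with a neighbour. For 49 of the 78 genes (62.8%) the nearest upstream coding neighbour was on the opposite strand, here called divergent, and within 1000 bp. That held for 21.1% of other coding genes. A neighbour that reaches over the 5′ end counts with a gap of 0 bp, the gap recorded at rpl-24.2 and rpl-37. The summit of 13 of the 21 peaks (61.9%) also lay in the window of a second coding gene, against 19.4% of the other promoter peaks. For 14 of the 21 the nearest coding 5′ end was that of the ribosomal protein gene. That count has no share over other promoter peaks beside it and describes these peaks only. A summit that lay in the window of the ribosomal protein gene and no other was held by 8 of the 78 genes (10.3%), beside 2.71% of all protein-coding genes. These 8 were rpl-3, rpl-35, rps-16, rps-24, rpl-41.2, rpl-24.2, rps-11 and, by its second peak, rps-26. Compared within neighbour classes, a reproducible summit was held by 13 of 49 genes with a divergent neighbour (26.5%, against 5.45% of others). It was held by 4 of 22 with a same-strand neighbour (18.2%, against 4.23%). Of 7 genes with no upstream neighbour within 1000 bp, 3 held one (42.9%, against 3.41%). These classes read the upstream side only, and the summit of rps-28, in the last class, also lay in the window of Y41D4B.4. Which gene of a shared window a peak belongs to cannot be told from these files.

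By chromosome, 8 of the 17 genes on IV had a reproducible promoter summit, against 3.55% of the other coding genes there. The counts were 4 of 18 on III (others 5.61%), 6 of 23 on I (others 4.52%) and 1 of 10 on II (others 4.25%). They were 1 of 8 on V (others 2.89%) and 0 of 2 on X (others 4.84%). The Wilson intervals of these shares overlap, with a lower limit of 26.2% on IV and an upper limit of 45.2% on III.

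Inside the genes, outside the promoter window, the share of the class lay near that of all genes. A reproducible summit stood in the body of 3 of the 78 genes (3.85%, 1.32 to 10.7), beside 3.08% of all protein-coding genes, and a pooled candidate in 36, or 46.2%, beside 42.4%. The class has short genes, with a median length of 754 bp against 2033 bp for other coding genes, so the stretch searched was shorter. At rpl-3 the summit, 1731 bp into the gene, lay in the 3′ UTR 2 bp from the annotated end, with a signal of 283. It had ranks 568 and 315. The genes with a reproducible summit in the body alone were rpl-4, which lines the exit tunnel, and rps-13. Their summits lay within 100 bp of the snoRNA genes B0041.9 and C16A3.11, with signals of 188 and 178, and both ranked higher in replicate 1 (776 and 1103) than in replicate 2 (4804 and 3801). In all, 13 genes of the class host 19 snoRNA genes, of which 6 had a pooled candidate and 2 a reproducible summit within 100 bp. Of the 40 pooled candidates in gene bodies, 29 lay in coding exons and 7 in introns. No share over all snoRNA genes or all gene-body candidates stands beside these counts, so they do not set the class apart.

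No pooled candidate in the window or the gene body was found for 14 of the 78 genes (17.9%), against 46.6% of other coding genes. They include rpl-10, rpl-31, rps-6, rps-9, rps-18 and rpl-11.2, the last of which had the replicate entries given above. rps-6 is the substrate of S6 kinase, and rpl-10 is needed for the subunits to join.

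Genes that work with the ribosomal proteins were read by the same rule, for which all protein-coding genes gave 30.8% with a pooled candidate and 4.18% with a reproducible summit. Of 6 other components of the ribosome (stalk proteins, ubiquitin fusions and rack-1), 3 had a pooled candidate and 1 had a reproducible summit, ubq-2, which makes ubiquitin fused to a large-subunit protein. Its signal was 169 (ranks 7460 and 840), with the summit 478 bp upstream and shared with frg-1. Of 25 genes of ribosome production, 17 had a pooled candidate and 5 a reproducible summit. The highest was pro-1, an rRNA processing gene, with a signal of 490 (rank 116; ranks 116 and 166 in the replicates) and the summit 132 bp upstream. larp-1, an RNA-binding protein of the family that controls ribosomal protein mRNAs in mammals, had a signal of 408 (ranks 222 and 192) with the summit 657 bp upstream, shared with wip-1. tag-151 had a signal of 216 (ranks 794 and 1363). ruvb-1, an ATPase of chromatin and snoRNP assembly complexes, had a signal of 177 (ranks 2889 and 1291), shared with tofu-1. fib-1, the rRNA methyltransferase fibrillarin, had a signal of 176 (ranks 2419 and 1582), shared with mut-15. fib-1 lies 109 bp upstream of rps-16 on the same strand. Of 10 genes of TOR and S6 kinase signalling, 7 had a pooled candidate and rheb-1, the small GTPase that switches TOR on, had the single reproducible summit, with a signal of 293 (ranks 825 and 493) at 277 bp upstream and in the window of spk-1 as well.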

How the data were processed

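Peak lists came from 2 biological replicates, grouped by their descriptions into 1 group. Per the submitters' deposited notes, each replicate and their pool was called against 1 control alignment, and an irreproducible discovery rate step gave the reproducible list. Its cutoff, the aligner and the peak caller were not given in the sources used here, and the control was not analysed here. The deposited signal column, the authors' peak value, ranked entries within a list only. The deposited −log10 q column and the summit offset were read for each peak. The ce11 lists were used and the ce10 lists were not. No read counts are given, so depth is unknown.

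Summits were set against Ensembl release 115 of WBcel235 with Python 3.11.15, pandas 2.3.3, numpy 2.4.6 and scipy 1.17.1, and sequence came from the RefSeq copy of that assembly. A gene was counted when a summit lay from 1000 bp upstream to 200 bp downstream of its 5′ end. A replicate entry matched a peak when the intervals overlapped by 1 bp, the entry of highest signal being taken. Shares have 95% Wilson intervals, and no enrichment test was run, since the members and lists were chosen with earlier results of these data known. The text names each gene with a reproducible promoter summit, the 3 others of highest pooled signal in the promoter window, those with one in the gene body alone, and such genes of the 2 ribosome lists. Further genes were named only once their values had been seen. bms-1, on the ribosome production list, had no match. The window functions were tested on simulated peaks of known position.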

Additional observations from a re-analysis of the deposited data

How the results depend on the processing

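Of 38 alternatives to the 5 main values, 29 kept counts within 1.5 times and the median offset within the spread between replicate lists (an SD of 2.8 bp). That SD comes from 2 medians, -284 and -288 bp. Both were themselves among the 29, so their place there carries no weight. Leaving out summits that also lie in the window of a coding gene outside the class lowered the reproducible count from 20 to 8, the pooled count from 55 to 28 and the peaks top-ranked in both replicates from 14 to 5, and moved the median offset from -286 to -335 bp. The construction of that alternative explains the lower counts, since it removes shared peaks. A window of 500 bp upstream to 100 bp downstream gave 18 genes, beside 2.85% of all protein-coding genes, and a median of -275 bp. It leaves out the summits of rpl-43 and rps-11 by distance. A window of 2000 bp upstream to 500 bp downstream gave 21 genes, beside 6.17% of all. The 942 peaks of higher signal gave 15 genes, beside 2.37% of all. Reading the top 500 entries of each replicate left 8 peaks in both. Gene-body counts were small: 3 genes became 1 in the 942 peaks of higher signal and 7 with whole intervals, and between 1 and 3 with 1 replicate left out. With 1 replicate left out, the list of the other was read on its own, with no reproducibility step. Its top 1884 entries reached 17 genes in replicate 1 and 23 in replicate 2, beside 3.72% and 4.59% of all protein-coding genes. The median offsets were -288 and -284 bp. All 30000 entries reached 53 and 62 genes of the class, against 29.3% and 32.8% of other coding genes. Requiring the top-ranked entries of each replicate list, chosen after seeing the data, gave 15 genes. No paired analysis was possible because the design has 1 group.

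The main limits are the unknown read depth, the transgenic fusion, the lack of an untagged group, the mixture of tissues and the 2 replicates. The replicate lists rank the weaker peaks unequally. Annotated 5′ ends of trans-spliced genes are not transcription starts.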
